A study of Saccharomyces cerevisiae with 72 samples.

Results

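Replication was compared between budding yeast (Saccharomyces cerevisiae) cells that carry an altered Sld3 protein and cells that were depleted of the phosphatase subunit Pph3. Strain B had PPH3 and the sld3-R(2A) allele, and strain C had pph3-AID and SLD3. The comparison took the libraries that the labels give as the replication timing course of these strains, 11 minutes per strain and 22 samples of the 72 in the series. The minutes were 15, 20, 25, 30, 35, 40, 45, 50, 60, 70 and 80 after release from G1, with 1 library per strain and minute. The courses of strain A (PPH3 SLD3) and strain D (pph3-AID sld3-R(2A)) served to order the bins and to place peaks, so that neither rested on B or C. Values of A and D are given beside those of B and C for 1 region and for the genome median.

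Both strains were W303 MATa. Both carried the auxin receptor at his3::PGPD1-osTir1::HIS3, the degron fusion CDC55-AID::KanMx, the deletion swe1delta::TRP1, and CSE4 moved to another locus by cse4delta::NatMX with leu2::CSE4-HA6::LEU2. B added sld3-R(2A)-13myc::KanMx, and C added PPH3-AID::HphMx and SLD3-13myc::KanMx. Cells were held in G1 with 5 µg/ml of the pheromone alpha factor. Once arrested they were given 1 mM of the auxin IAA, which targets proteins with an auxin-inducible degron (AID), and were kept at 37 °C for 30 min. They were then released into medium with 1 mM IAA. Both strains therefore also had Cdc55 under degron control and had no SWE1, and neither stands for a cell with intact PP2A-Cdc55. The deposited ratios do not show how far Pph3 or Cdc55 was depleted, and the labels do not say which residues the 2A allele changes.

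Origins of replication are licensed in G1 by loading the Mcm helicase and fire in S phase in a reproducible order. Sld3 brings Cdc45 to the loaded helicase, and its phosphorylation by cyclin-dependent kinase joins it to Dpb11. The checkpoint kinase Rad53 can also phosphorylate Sld3, which holds late origins back. Pph3 is the catalytic subunit of the phosphatase PP4, which acts on Rad53 among other proteins. Cdc55 is a regulatory subunit of the phosphatase PP2A, and Swe1 is a kinase that inhibits the cyclin-dependent kinase.

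Each deposited table gives a ratio of S-phase to G1 reads in 1-kb bins, multiplied by a scale factor that stands for bulk DNA content. A ratio near 1 means unreplicated and near 2 replicated DNA. The 11 ratios of a strain share the same G1 denominator. Of 11331 bins listed in any table, 11277 were in all 44 tables of the 4 strains. Read counts are not listed, so depth is unknown, and the noise of single bins, estimated from neighbouring bins, was 0.0425 to 0.0693 of the library median. As each strain is 1 culture, the difference between strains could not be tested. Standard deviations (SD) given with Trep or peak values are those of the 16 chromosome medians, which vary along the genome of the same cultures. A difference between the strains and a difference between these particular cultures or releases cannot be told apart. Nor can fewer cells in S phase be told apart from slower replication per cell.

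Bulk DNA content rose earlier in C than in B. The scale factor of B was 1.049, 1.085, 1.165, 1.244, 1.378, 1.573, 1.732, 1.823, 1.921, 2 and 2 over the 11 minutes. The factor of C was 1.059, 1.076, 1.218, 1.353, 1.512, 1.671, 1.829, 1.894, 1.988, 2 and 1.912. C was therefore ahead from 25 to 60 minutes, the strains were equal at 70 minutes, and C alone fell at 80 minutes. The factor reached 1.5 at 38.1 minutes in B and 34.6 minutes in C, 3.51 minutes apart. It went from 25% to 75% of the way between 1 and 2 in 15.8 minutes in B and 16.3 minutes in C, so that the curves were displaced in time and differed little in steepness.

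The timing of contrast between early and late DNA differed much less than bulk content. Early and late bins are the first and the last 10% in the mean replication time of A and D, 1126 bins each, and the scale factor cancels in the ratio of their medians. The early-to-late ratio was highest at 40 minutes in both strains, 1.64 in B and 1.74 in C. Its excess over 1 reached 50% of the maximum at 31.5 minutes in B and 31.0 minutes in C, and fell back through that level at 49.2 and 48.7 minutes. The difference was 0.49 minutes on the rise and 0.45 minutes on the fall, against 3.51 minutes for the scale factors. The ratio spread, the SD of the ratios over bins divided by the library median, was 0.188 in both strains at 40 minutes. It was larger in C at 35 minutes, 0.192 against 0.165, and at 45 minutes, 0.168 against 0.149.

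**Figure D1:**
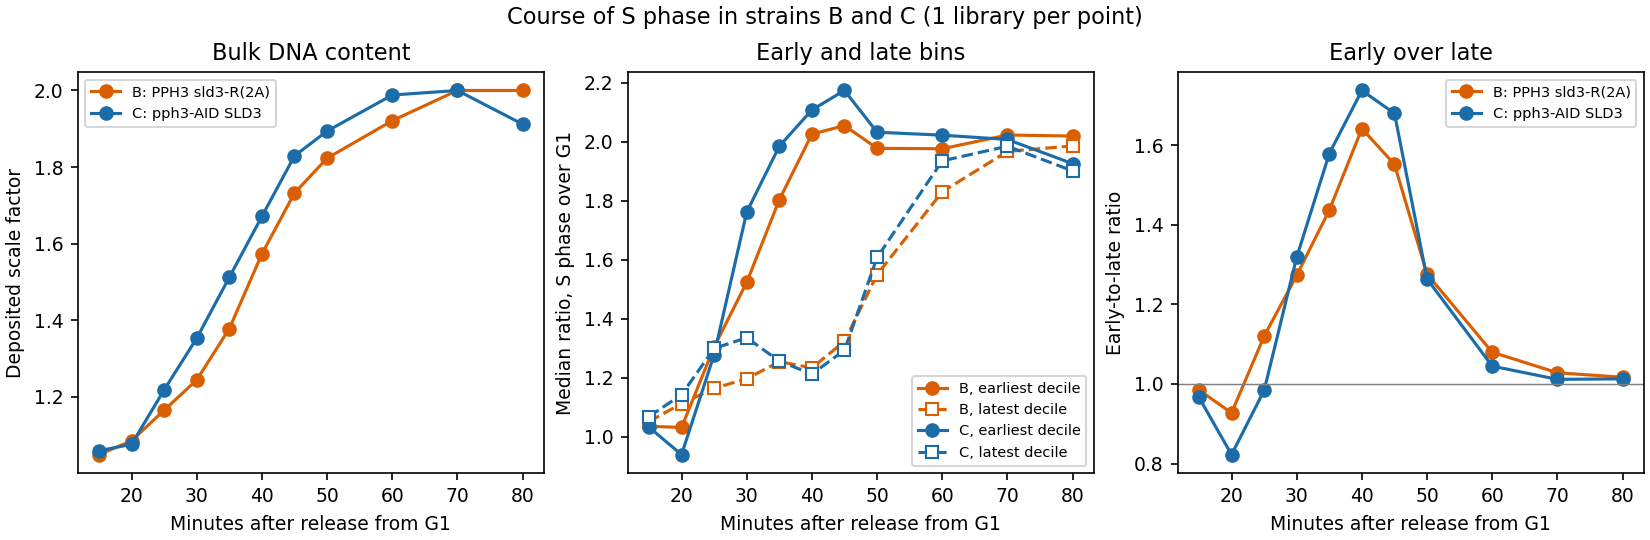
Deposited scale factor (left), median ratio of the earliest and latest 10% of bins (middle) and their early-to-late ratio (right) against minutes after release, with 1 library per point and no error bars. The scale factor of C runs ahead of B from 25 to 60 minutes, while the early-to-late ratio of both strains is highest at 40 minutes and lies below 1 at 20 minutes.

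At 30 and 35 minutes early bins differed more between the strains than late bins. The median ratio of early bins at 30 minutes was 1.52 in B and 1.76 in C, and at 35 minutes 1.80 in B and 1.99 in C. Late bins took another course: in C they stood at 1.34 at 30 minutes, fell to 1.21 at 40 minutes and rose to 1.61 at 50 minutes. In B they stood at 1.20 at 30 minutes, 1.255 at 35 minutes, 1.234 at 40 minutes and 1.55 at 50 minutes, so that they also fell between 35 and 40 minutes, by less than in C. From 35 to 45 minutes the late medians of both strains lay within 0.03 of each other, whereas early bins were lower in B. In both strains the late bins fell while the scale factor rose, and how the authors set the factors is not given in the sources used here.

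Before the rise, early bins stood below late bins in both strains. At 20 minutes the early-to-late ratio was 0.927 in B and 0.822 in C, and at 25 minutes it was 1.12 in B and 0.984 in C. Across bins, Pearson's r between the ratio at 20 minutes and earliness in A and D was -0.365 in B and -0.612 in C, given as descriptions over bins that share a library. Values before 30 minutes enter every measure summed over the course. The count of windows that differ in such a measure is also given later with each of those minutes left out singly. No count without all of them together was made.

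At matched minutes B lay below C over most of the genome in mid S phase. The share of bins with the lower ratio in B was 80.9% at 30 minutes, 82.1% at 35 minutes, 76.4% at 40 minutes and 67.0% at 60 minutes. All 16 chromosome medians were lower in B at each minute from 25 to 60. The share was 49.9% at 70 minutes and 29.2% at 80 minutes, when the factor of C had fallen. The shape of the profile was alike in both strains: over 5-kb windows of the ratio divided by the library median, r between B and C was 0.938 at 35 minutes, 0.965 at 40 minutes and 0.937 at 45 minutes.

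Most bins replicated later in B, and the order of replication was nearly the same. Replication time (Trep) is the minute at which the 5-kb mean of the ratio, made monotone in time, crossed 1.5, and it was obtained for 11260 bins in both strains. Median Trep was 39.3 minutes in B and 36.3 minutes in C. The median difference per bin, B minus C, was 2.64 minutes (SD 0.282 over 16 chromosomes), with quartiles of 1.60 and 3.53 minutes. B was later in 10496 bins, 93.2% of those measured, and C was later in 764 bins, 6.79%. Across bins r between the Trep of B and C was 0.968. When both strains were given the mean of their factors at each minute, the median difference was 0.669 minutes. This step gives B and C nearly the same mean ratio at each minute, so a smaller difference follows from it. A delay over the whole genome would be taken out in the same way as an error of the factors, and the 2 cannot be told apart.

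With all minutes used, the lag of B was largest in bins of early to middle order and smaller in both the earliest and the late bins. By decile of replication order from earliest to latest, the median Trep difference was 2.13, 2.93, 3.34, 3.35, 2.97, 3.07, 2.88, 2.21, 1.252 and 0.96 minutes. It was thus highest in deciles 3 and 4 and lowest in deciles 9 and 10. The place of the maximum rested on single minutes. Without the 35-minute libraries deciles 3 and 4 had 2.08 and 2.03 minutes, and decile 6 had 3.51. Without the 25-minute libraries decile 1 had 3.11 minutes, so its smaller lag was not kept. The earliest decile crossed 1.5 at 29.4 minutes in B and 27.4 minutes in C, and the latest at 48.8 and 47.7 minutes. C was later in 5.68% of bins of the earliest decile, in 0.178% of each of deciles 2, 3 and 4, and in 24.0% and 23.5% of deciles 9 and 10. With factors common to both strains the 8 earlier deciles stayed above 0, between 0.36 and 1.13 minutes, and deciles 9 and 10 turned to -0.38 and -0.49 minutes. The latest decile minus the earliest was -1.17 minutes, and this gap rested on single minutes: without the 30-minute libraries it was -0.104, without the 45-minute libraries -0.0999 and without the 25-minute libraries -2.15 minutes.

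**Figure D2:**
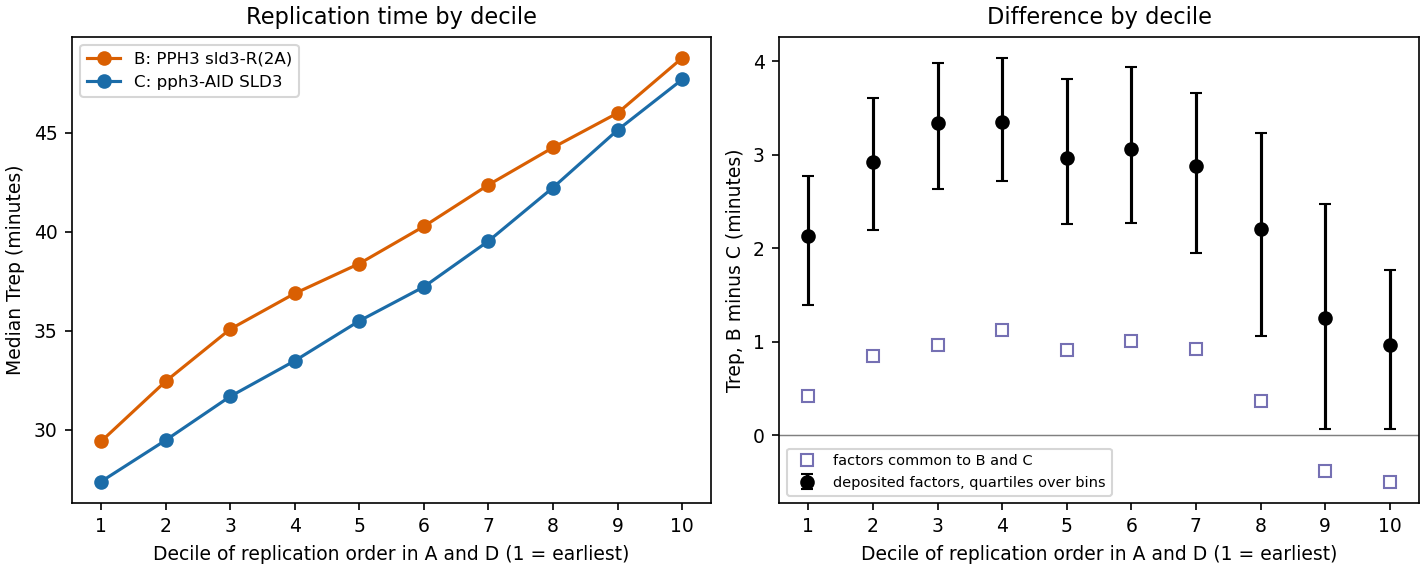
Median Trep of B and C in minutes (left) and its difference per bin (right) by decile of replication order in A and D. Points with bars are medians and quartiles over bins with the deposited factors, and open squares are medians with factors common to both strains. With all minutes used, the difference is highest in deciles 3 and 4, at 3.34 and 3.35 minutes, and 0.96 minutes in decile 10.

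The chromosomes differed little among themselves. The median Trep difference ran from 2.15 minutes on chromosome IV to 3.12 minutes on chromosome XI, and all 16 were above 0. With common factors all 16 were still above 0, from 0.19 minutes on XIV to 1.14 minutes on I. The dependence on order was also seen within chromosomes, which all come from the same libraries. For this the bins were divided into an early, a middle and a late class by replication order. The late class had a smaller difference than the early class on 15 of 16 chromosomes and than the middle class on 14 of 16. These counts were not recomputed without the 30- or 45-minute libraries, on which the gap over the genome rested. The late class ranged from 0.69 minutes on XV to 3.25 minutes on IX, and the early class from 2.37 minutes on III to 3.41 minutes on XVI.

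Chromosome ends lagged more in B than the rest of the genome with the deposited ratios. Ends are the outermost 30 kb of listed sequence on each side of a chromosome, 854 bins with a Trep. Their median Trep was 43.4 minutes in B and 39.5 minutes in C, with a median difference of 3.52 minutes against 2.58 minutes elsewhere. Of the 32 ends, 25 were above the genome median and none was below 0. The right end of VIII, counted among the 25, had only 1 bin with a Trep, at 3.39 minutes. The smallest difference was 0.877 minutes, at the left end of IV, and the largest was 7.45 minutes, at the left end of XII. The right end of VII had 5.35 minutes, the left end of XV 5.24 minutes and the right end of II 4.74 minutes. B was later by more than 5 minutes in 19.4% of end bins and 3.19% of other bins, against 4.42% of all bins. After each library was divided by the mean profile of its own strain at 15, 70 and 80 minutes, which removes differences that are there before and after S phase, the gap between ends and the rest was 0.222 minutes in place of 0.941.

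**Figure D3:**
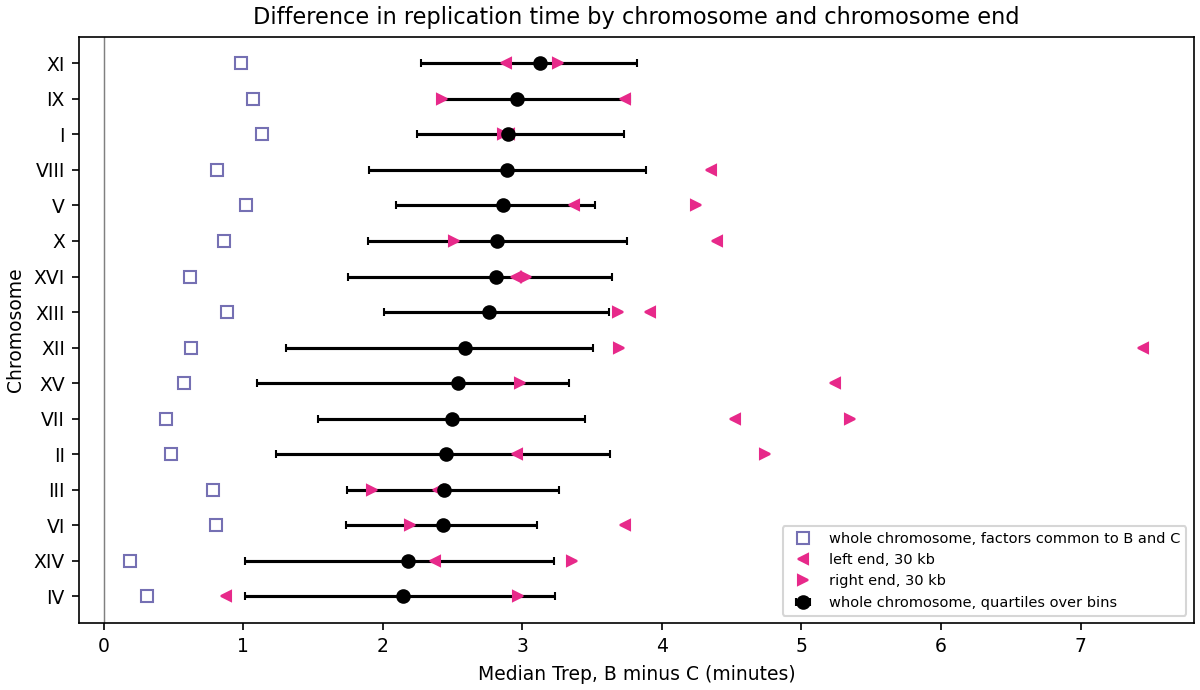
Median Trep difference, B minus C in minutes, for each of 16 chromosomes with quartiles over bins (black), with factors common to both strains (open squares), and for the 30 kb at each end (triangles; 1 end with a single bin is not drawn). All 16 chromosomes lie above 0, from 2.15 to 3.12 minutes, and the left end of XII stands apart at 7.45 minutes.

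Bins in which B was later by more than 5 minutes numbered 498 and formed 174 runs of neighbouring bins, of which 7 had at least 10 bins. The 5 longest runs were looked at after their values were seen and are described without support from the count. Of the 7 long runs, 4 lay wholly within 30 kb of a chromosome end. End bins were 7.58% of all bins and 33.3% of the bins with B later by more than 5 minutes. The longest was 23 bins at chrXII:14001-37000 (sacCer3). Its genes include MHT1 and MMP1, for the use of S-methylmethionine, JLP1 and YCT1, for sulfonate use and cysteine uptake, and the aquaporin gene AQY2. Its mean ratio in B was 1.05, 1.102, 1.16, 1.21, 1.29, 1.32, 1.32, 1.50, 1.77, 1.95 and 1.99 over the 11 minutes, and in C it was 1.07, 1.17, 1.32, 1.38, 1.31, 1.45, 1.69, 1.87, 1.97, 1.98 and 1.97. B was lower at every minute up to 70, by most at 45 and 50 minutes. Trep was 50.0 minutes in B, 40.8 in C, 36.3 in A and 48.2 in D, so the value of C lay nearer to A and that of B nearer to D. This nearness was not particular to the run: the medians over all bins were 39.3 minutes in B, 36.3 in C, 32.8 in A and 44.0 in D. B was later than D in the run, whereas its median over all bins was earlier than that of D. In the run the median difference per bin, B minus C, was 9.49 minutes, 7.78 after division by the mean profile and 7.23 with common factors.

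The other long runs had smaller differences. At chrIV:122001-141000 the difference was 6.29 minutes over 19 bins with PPH22, a catalytic subunit of PP2A, VMA1, a subunit of the vacuolar proton pump, and LYS20, of lysine synthesis. It was 5.41 minutes after division by the mean profile and 3.11 with common factors. At chrII:771001-782000, with the vacuolar aminopeptidase gene APE3 and SNF5, a subunit of the SWI/SNF remodeller, it was 6.90 minutes, 4.87 after division by the mean profile and 3.74 with common factors. At chrXV:29001-42000 it was 6.09 minutes, 4.49 after division by the mean profile and 2.92 with common factors. At chrVII:1065001-1076000, with the isomaltase gene IMA1 and the maltose genes MAL11 and MAL13, it was 6.21 minutes, 2.64 after division by the mean profile and 2.08 with common factors. The run at the left of XII thus kept over 7 minutes under both alternatives, whereas the other 4 were at 2.08 to 3.74 minutes with common factors.

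Bins in which C was later formed 219 runs, of which 19 had at least 10 bins and none lay wholly within 30 kb of an end. The longest, 25 bins at chrXII:876001-901000, holds SEC61, of the protein translocation channel, and SMC6, of the Smc5/6 complex, and its difference was -1.08 minutes. At chrIV:693001-714000, 21 bins with DPB4, a subunit of DNA polymerase epsilon, INO2, an activator of phospholipid genes, and ARO1 and SAC6, it was -1.998 minutes. The mean ratio of this stretch in B was 1.07, 1.13, 1.20, 1.23, 1.33, 1.36, 1.55, 1.68, 1.905, 1.996 and 2.06, and in C it was 1.08, 1.15, 1.31, 1.37, 1.37, 1.37, 1.42, 1.73, 1.99, 2.06 and 1.898. C was above B up to 40 minutes, stayed level from 30 to 40 minutes, was below B at 45 minutes and above it again at 50 minutes. The sign of Trep here therefore rests on 1 minute: without the 45-minute libraries the difference was 1.14 minutes in this stretch, 1.31 in the SEC61 stretch and 0.619 at chrXV:782001-799000, which includes the acetyltransferase gene ESA1 and was -0.82 with all minutes. At chrIV:651001-668000, with BMH2, of the 14-3-3 family, and the mating scaffold gene STE5, it was -1.64 minutes and -0.33 without that minute. At chrII:705001-721000, with ISW1, of a chromatin remodeller, it was -1.85 minutes and -0.41 without it. Division by the mean profile also brought these 2 stretches near 0, to -0.311 and -0.374 minutes. With common factors all 5 differences lay further below 0, from -2.84 minutes in the ESA1 stretch to -3.93 minutes in the DPB4 stretch. The SEC61 stretch had -3.07, the STE5 stretch -3.12 and the ISW1 stretch -3.63 minutes. Common factors also lowered the median difference over all bins, from 2.64 to 0.669 minutes. The lower values are therefore no separate support for these runs. Over all bins, 355 had C later without the 45-minute libraries in place of 764, and 3459 with common factors.

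**Figure D4:**
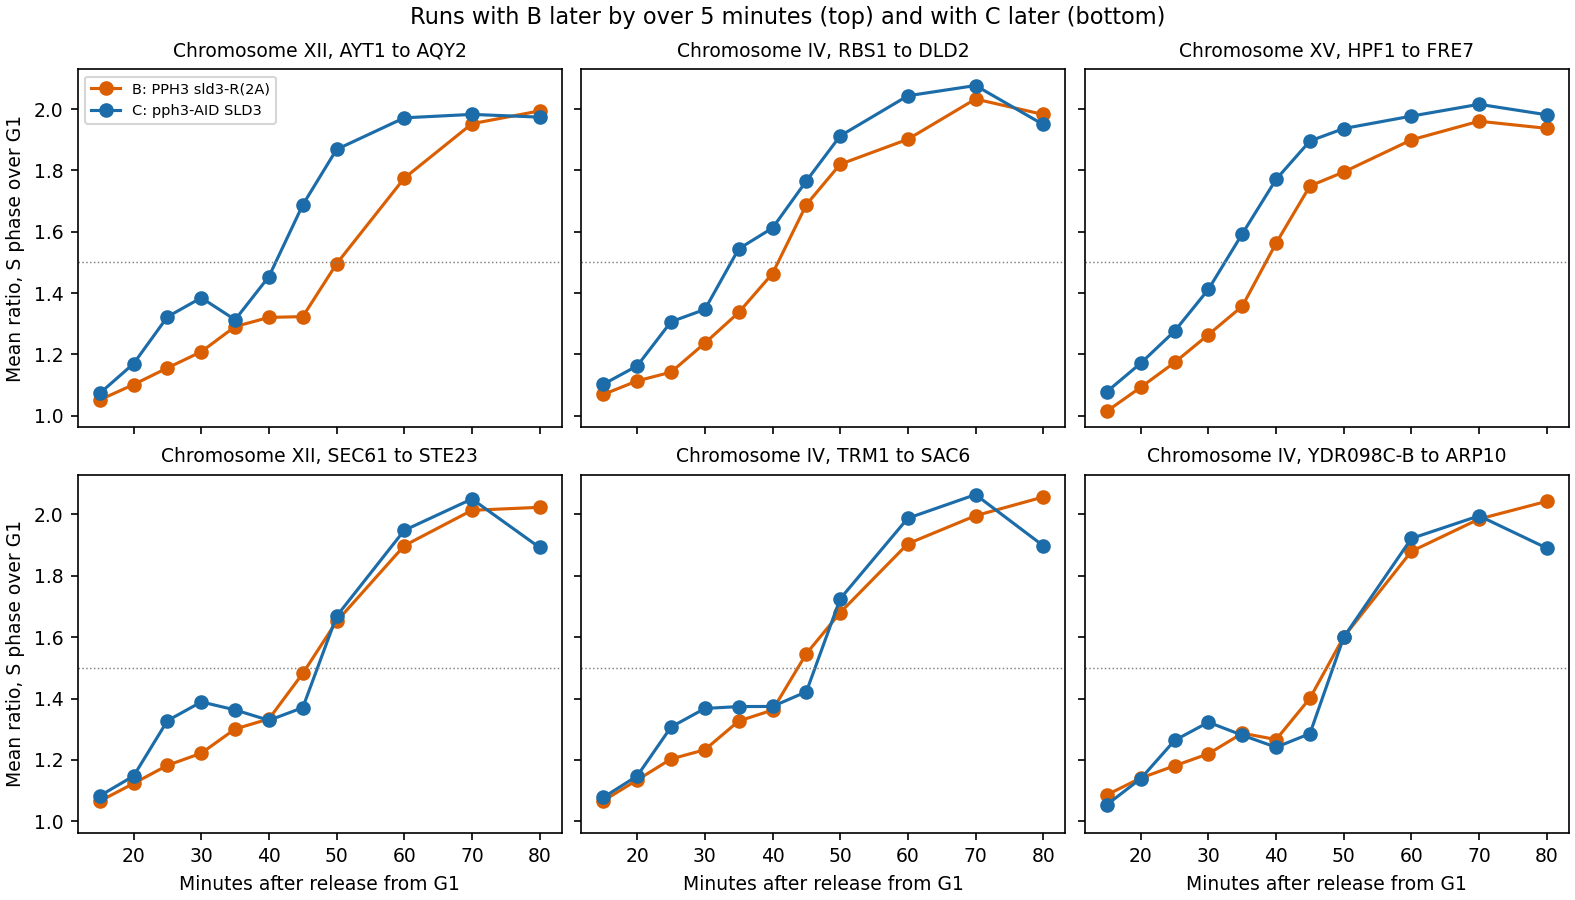
Mean ratio of S-phase to G1 DNA against minutes after release for the 3 longest runs with B later by over 5 minutes (top) and the 3 longest runs with C later (bottom), named by their first and last gene, with 1 library per point. The dotted line is the 1.5 level that defines Trep. B lies below C through mid S phase in the top row, while in each panel of the bottom row C is the lower strain at 45 minutes.

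Summed over the course, few 5-kb windows differed beyond noise after division by the library median, whereas at single minutes more did. Division by the median removes the scale of a library and leaves the delay in bulk content between the strains. Each ratio was divided by its library median and summed as an area over the course, and the genome median of that area was taken off. The result, called relative timing here, is in minutes and is higher where replication is earlier. Of 2223 windows, 19 (0.855%) differed between B and C by more than 3 times the noise of a window, 13 (0.585%) with the higher value in B and 6 (0.27%) with the lower value. None passed 5 times the noise. With the 15-, 20- or 25-minute libraries left out singly, 18, 19 and 16 windows passed. The same rule on the ratio divided by the library median at 1 minute gave 187 windows (8.41%) at 20 minutes, 171 (7.69%) at 25, 231 (10.4%) at 30, 204 (9.18%) at 35 and 168 (7.56%) at 40 minutes. It gave 120 (5.4%) at 45, 38 (1.71%) at 50 and 19 (0.855%) at 60 minutes, beside 5 (0.225%) at 15, 7 (0.315%) at 70 and 10 (0.45%) at 80 minutes. The direction changed between minutes: 140 windows (6.3%) were higher in B at 20 minutes, 148 (6.66%) were lower in B at 30 minutes, and 160 (7.2%) were higher in B at 40 minutes. Differences of opposite direction in the same window offset each other in the summed area. The SD of all windows was 1.98 minutes beside a noise of 1.73 minutes. After division by the mean profile 31 windows (1.39%) passed, of which 1 was among the 19, and 15 of the 19 kept their sign. With profiles compared at equal scale factor, which also takes out the delay in bulk content, 54 windows (2.43%) passed. Of these, 16 were also among the 19, which is 84.2% of the 19 and 29.6% of the 54.

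The 1 window that passed both with and without division by the mean profile was chrXII:605001-610000. It holds EST1, a subunit of telomerase, TOP3, a topoisomerase, and BNA5, of NAD synthesis. Its ratio divided by the library median in B was 1.03, 1.03, 1.23, 1.28, 1.41, 1.37, 1.21, 1.12, 1.097, 1.06 and 1.02 over the 11 minutes. In C it was 0.96, 0.87, 1.03, 1.20, 1.26, 1.19, 1.13, 1.00, 0.93, 0.99 and 0.97. B was higher at every minute, before and after S phase too. Relative timing was 7.75 minutes higher in B, and 3.31 minutes after division by the mean profile. Trep was 28.1 minutes in B and 29.1 minutes in C.

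The other named windows with the earlier relative timing in B kept little of it after that division. At chrXVI:625001-630000, with APL4, of a clathrin adaptor, the difference was 6.52 and then 1.39 minutes. At chrII:425001-430000, with POL30, which encodes the sliding clamp PCNA, and the phosphatase genes PHO3 and PHO5, it was 6.35 and then 1.61 minutes. At chrVII:910001-915000, with the thioredoxin gene TRX2, it was 6.23 and then 0.774 minutes. At chrII:635001-640000, with the vacuolar iron transporter gene FTH1, it was 6.46 and then 0.0211 minutes. The 4 named windows with later relative timing in B were chrXV:10001-15000, with PAU20, at -6.99 and then -1.42 minutes, chrVII:400001-405000, with the fatty acid desaturase gene OLE1, at -5.94 and then -1.13 minutes, chrIX:420001-425000, with LYS1, at -5.85 and then -1.20 minutes, and chrVIII:385001-390000, with RPC10, a subunit of RNA polymerases, at -5.62 and then -0.347 minutes. Trep, which keeps the scale factor, was larger in B by 3.88 to 6.34 minutes at these 4. It was also larger in B, by 0.46 to 1.85 minutes, at 4 of the 5 windows with the earlier relative timing in B, beside 93.2% of all bins.

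At equal scale factor, early bins led late bins by more in B at a low factor and by more in C at a high factor. At a factor 25% of the way from 1 to 2 the early-to-late ratio was 1.28 in B and 1.06 in C. At a factor of 1.5 it was 1.558 in B and 1.556 in C, and at 75% of the way it was 1.49 in B and 1.704 in C. The low factor was reached at 30.2 minutes in B and 26.2 in C, and the high factor at 46.0 and 42.5 minutes. At matched minutes the ratio was highest at 40 minutes in both strains. The change of lead cannot be told apart from the displacement of the factors in time, and was not tested.

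Peaks of the profile mark regions that replicate before their surroundings, as active origins do. At 40 minutes B had 147 peaks and C 155, each the highest 5-kb mean among those up to 10 kb away, with a prominence over 3 times the noise of a 5-kb mean. A peak of the other strain lay within 5 kb for 70, which is 47.6% of the B list (95% Wilson interval 39.7 to 55.7%) and 45.2% of the C list (37.5 to 53.0%). These intervals cover counting error only. At 35 minutes 56.8% of B peaks had such a partner and at 45 minutes 32.9%. At 40 minutes 44 peaks of B and 52 of C had no partner within 10 kb. Their median prominence was 0.107 in B and 0.113 in C, below the 0.200 and 0.210 of shared peaks.

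The 6 named peaks listed in 1 strain stood above the library median in the other strain as well. The 3 most prominent of B were at chrVII:811001-812000, near RTS3, at chrXII:377001-378000, near AVL9 and CFT2, and at chrXII:221001-222000, near PAU23. Their heights at 40 minutes, as the ratio divided by the library median, were 1.45, 1.42 and 1.36 in B and 1.251, 1.28 and 1.23 in C. The 3 most prominent of C were at chrVII:846001-847000, near ERG1, of sterol synthesis, chrIV:484001-485000, near KCS1, an inositol pyrophosphate kinase, and chrXIV:333001-334000, near the kinase gene CBK1. Their heights were 1.32, 1.249 and 1.19 in B and 1.35, 1.28 and 1.20 in C. The peaks were chosen for prominence in 1 strain at this minute, so these heights are a description. The B set was higher in B by 0.127 to 0.201, and the C set differed by -0.0315 to -0.0099, B minus C. At 35 minutes the differences were 0.111, 0.0248 and 0.0532 in the B set and -0.109, -0.0907 and -0.12 in the C set, so the C set then stood further apart. After division by the mean profile they were 0.107, 0.0633 and 0.0591 in the B set, and the C set turned to 0.0645, 0.0396 and 0.0538.

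At peaks placed on A and D, which do not rest on B or C, the height at 40 minutes was higher in B at 111 of 146 peaks. The median height was 1.13 in B and 1.11 in C, with a median difference of 0.0289 (SD 0.022 over chromosomes). At 152 valleys between them the difference was 0.0282, close to that at peaks. At 35 minutes peaks were higher in C, with a median difference of -0.0153 and 58 of 146 higher in B, while valleys were higher in B, with 0.0427 and 108 of 152. At 45 minutes the difference was 0.017 at peaks and 0.0004 at valleys. Trep at these peaks was 35.9 minutes in B and 32.3 in C, a median difference of 2.82 minutes, and at valleys it was 44.3 and 41.7 minutes, a median difference of 2.21 minutes. With common factors the differences were 0.368 minutes at peaks and 0.692 at valleys, so the order of the classes turned round. The delay from a peak to its adjacent valley, over 273 pairs a median of 32 kb apart, was 5.92 minutes in B and 6.16 in C, with 131 pairs longer in B and 142 longer in C.

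**Figure D5:**
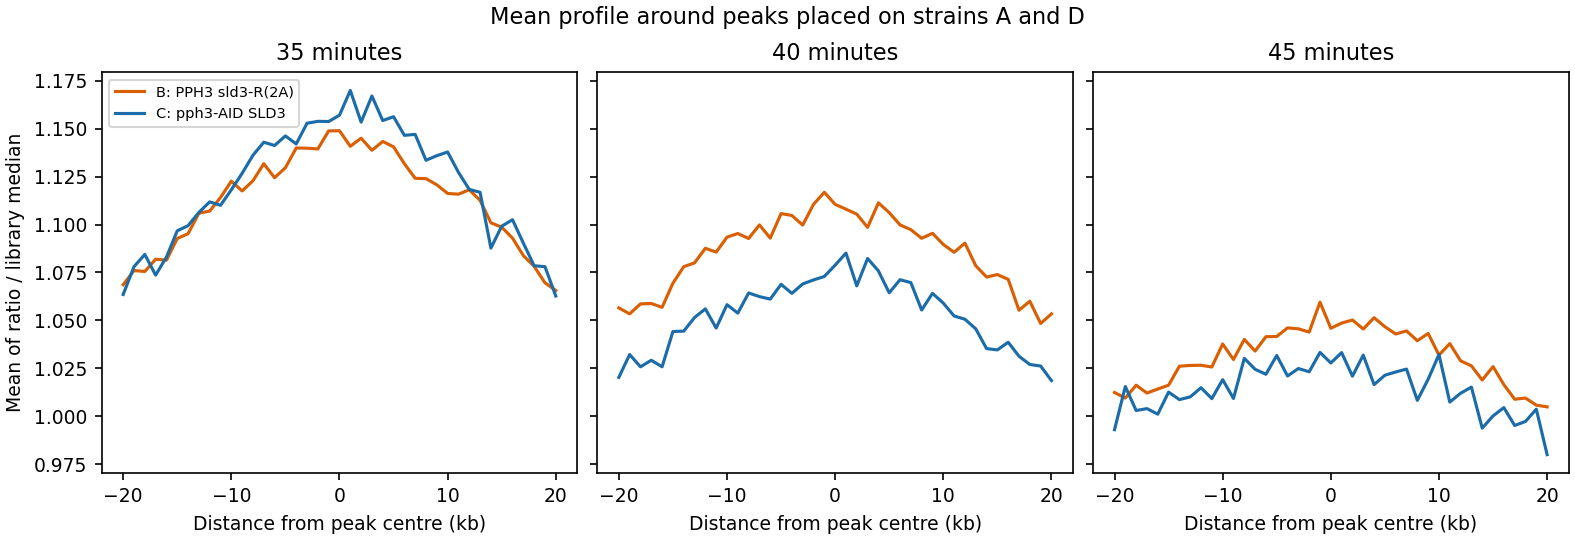
Mean ratio divided by the library median against distance in kb from the centre of 146 peaks placed on strains A and D, at 35, 40 and 45 minutes, for B and C. C reaches 1.17 within 1 kb of the centre at 35 minutes, where B reaches 1.15, and at 40 minutes B reaches 1.12 and C 1.09.

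Loci named in the genotypes were later in B where they were measured, as most bins were. Their differences ran from 1.06 to 5.30 minutes, beside a median of 2.64 minutes over all bins. The bin of SLD3 itself, at chrVII:296001-297000, crossed 1.5 at 39.0 minutes in B and 33.7 minutes in C, a difference of 5.30 minutes. Its 5-kb ratio was 1.24, 1.36, 1.53 and 1.77 in B and 1.32, 1.56, 1.76 and 1.77 in C at 30, 35, 40 and 45 minutes, so the strains met at 45 minutes. The difference was 1.06 minutes at PPH3, 2.45 at CDC55, 2.30 at TRP1 and 1.29 at HIS3, and the bins of SWE1, CSE4 and LEU2 were not among those used here. TRP1 is named only as the marker placed at SWE1, so its own bin was not altered per the labels. B was later at all 5 measured loci, beside 93.2% of all bins. The tagged alleles and markers inserted there were not placed.

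The histone genes, which are expressed in S phase and here all lay in the earliest decile, had differences of -1.14 to 2.72 minutes. B was later at 6 of 8, where C was later in 5.68% of all bins of that decile. The genes lie as pairs in neighbouring bins whose 5-kb means overlap, so the members of a pair do not count separately. C was the later strain at the neighbours HTB1 and HTA1, by 1.14 and 0.63 minutes, although their ratio at 30 minutes was higher in C: HTB1 stood at 1.63 in B and 1.86 in C. The other H2A and H2B pair, HTA2 and HTB2, differed by 1.37 and 1.76 minutes. Of the H3 and H4 pairs, HHT1 and HHF1 differed by 0.65 and 0.10 minutes and HHT2 and HHF2 by 2.60 and 2.72 minutes. At the right flank of the ribosomal DNA array, chrXII:490001-500000, B crossed at 33.7 minutes and C at 29.5 minutes, a difference of 4.22 minutes over 10 bins. The left flank had 2 bins with 2.65 minutes, but B had the lower mean ratio there at only 2 minutes. These were 35 minutes, with 1.27 in B and 1.50 in C, and 70 minutes, with 1.84 and 2.08. At 40 and 45 minutes B was higher, with 1.64 and 1.88 against 1.51 and 1.50 in C. Relative timing at the left flank was 5.45 minutes higher in B, beside a noise of 2.74 minutes. The left flank therefore does not show a lag of B through the course.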

How the data were processed

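Genomic DNA of S-phase cells was sequenced in 44 libraries, of which the 22 of strains B and C were compared. The authors deposited a ratio per 1-kb bin: per the file headers, reads per bin over reads of the same strain's G1 library, times a listed scale factor. Bowtie2 2.2.6, SAMtools 1.7.2, bedtools 2.26.0 and the sacCer3 build are named in the submitters' processing notes. How factors were set is not given in the sources used here. The mean ratio lay within 0.0042 of the factor in each library. Everything else was computed here with numpy 2.4.6, pandas 2.3.3 and scipy 1.17.1, and the steps were tested on simulated data.

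Smoothing used 5 kb with at least 3 bins present, and windows needed 4 of 5 bins. Profiles at equal factor were interpolated on a grid from 1.1 to 1.9 in steps of 0.05 and averaged. Gene names came from RefSeq's R64 annotation, the assembly behind sacCer3. Named windows were the 5 most positive and 5 most negative past 3 times the noise that kept their sign after division by the mean profile and lay 30 kb apart; 4 negative ones were left. Runs and values chosen after seeing the data are named as such. Members, lists and rules were chosen with earlier results of these data known. Alternatives changed smoothing, level, factors, denominators, windows, minutes and the source of the order. The chromatin immunoprecipitation samples, origins and centromeres were not analysed here.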

Additional observations from a re-analysis of the deposited data

How the results depend on the processing

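No paired analysis was possible because each strain and minute had 1 library. The bulk difference was 4.04 minutes where the factor was 25% of the way from 1 to 2. The spread difference was -0.0266 at 35 and -0.0192 at 45 minutes. The Trep difference was 0.669 minutes with common factors and ran from 2.24 (without the 35-minute libraries) to 2.83 minutes when each minute was left out, and the latest-minus-earliest gap ran from -2.15 to -0.0999 minutes. Ends exceeded the rest by 0.739 to 1.54 minutes over the same omissions. Bins with B later by more than 5 minutes numbered 1814 without smoothing, 330 with 9 kb, 249 with each bin's own midpoint as level, 30 with common factors and 273 with division by the mean profile, and 498 to 826 with a minute left out (826 without 30, 802 without 40). Bins with C later numbered 1636 without smoothing, 3459 with common factors and 355 to 1003 with a minute left out. Past 5 times the noise there were 0 windows by relative timing and 0 at equal factor. Division by the mean profile gave 31 windows, a 15-minute denominator gave 28 at equal factor, and leaving out a minute gave 16 to 28 and 41 to 80. Shared peaks were 22.4% within 2 kb, 70.1% within 10 kb, 56.8% at 35 minutes and 32.9% at 45 minutes. The peak height difference turned to -0.0153 at 35 minutes. Ordering bins by A or D alone gave 0.833 and 0.588 minutes on the rise of contrast and 0.500 and 0.212 on its fall. The early-to-late difference at a factor of 1.5 was -0.0009 with the order of D and -0.0176 with the mean profile.

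Single results also changed sign. Common factors gave -0.38 and -0.49 minutes in deciles 9 and 10. Without the 45-minute libraries the C-later runs at XII 876001, IV 693001 and XV 782001 had 1.31, 1.14 and 0.619 minutes, the highest with a minute left out, against lowest values of -1.93, -2.81 and -0.967, and with the own midpoint the run at IV 651001 had 0.185. A 15-minute denominator gave -0.304 at II 425001 and -0.0545 at VII 910001. Division by the mean profile gave 0.0645, 0.0396 and 0.0538 at the C peaks at VII 846001, IV 484001 and XIV 333001, and the last was 0.0199 at 45 minutes. The causes were not tested. Depth is unknown, so the limit of detection was set by the noise of bins alone.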

Other observations

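The most prominent peaks were not the most often shared. Ranked by prominence at 40 minutes, the 36 highest peaks of B had a C peak within 5 kb in 44.4% of cases, the next 36 in 72.2%, the third group of 36 in 47.2% and the lowest 39 in 28.2%. For C the shares were 52.6%, 63.2%, 36.8% and 29.3% over groups of 38, 38, 38 and 41. The difference between groups was not tested.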
